A study of Mus musculus with 6 samples.

Results

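Interferon-stimulated antiviral genes were followed in adipocytes that had been differentiated from mouse adipose-derived stem cells (ADSCs) with or without NJT-2, the triterpenoid saponin saikosaponin A. The group consists of 10 genes, *Irf7*, *Irf9*, *Dhx58*, *Eif2ak2*, *Mx1*, *Mx2*, *Rsad2*, *Cmpk2*, *Ifi35*, and *Parp9*, taken by symbol from the 4864 genes analysed. All 10 had a row, and all 10 were among the 3705 genes with a mean FPKM (a level corrected for gene length and library total) of at least 0.5 that entered the fit. These genes were chosen by their counts and FPKM values in NJT-2 against vehicle in these same libraries. Their differences between the groups are therefore given as a description, and p-values and calls printed for them carry no weight as a test. The cells came from white adipose tissue of wild-type male C57BL/6J mice, which the labels call subcutaneous. Both groups received the same adipogenic agents, dexamethasone, insulin, IBMX, indomethacin, and T3, and differed in NJT-2 or vehicle. Mature adipocytes were harvested on day 8, and 200 nM is the concentration that the methods give for this cell model, although not separately for the sequenced cultures. There were 3 libraries of polyadenylated RNA in each group. Nothing says that they came from separate animals or cultures, so the p-values below measure the spread between libraries, which may be technical.

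Type I interferons bind the receptor pair IFNAR1 and IFNAR2 and activate the kinases attached to it. IRF9 then takes part in the transcription factor complex ISGF3, which binds interferon-stimulated response elements in the promoters of its target genes. IRF7 is both a target of this complex and a driver of further interferon transcription. Many of the induced proteins act on viral RNA or on the replication of viruses, and adipocytes and their precursors are among the cells that can make this response. In the annotation deposited with the counts, 6 of the 10 genes were listed under defense response to virus, as were 54 genes in all, and 6 under innate immune response, with 110 genes in all.

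RefSeq promoter sequence (GRCm38.p6, 250 bases before to 50 bases after the transcription start) matched 6 of the 10 genes, with 7 promoters in all. They were searched on both strands for the core of the interferon-stimulated response element, GAAA followed by any 2 bases and GAAA, without allowing mismatches. *Rsad2* and *Eif2ak2* each had a match, and *Irf7*, *Ifi35*, *Cmpk2*, and both promoters of *Irf9* had none in this window. Of all 32851 mouse promoters of this length, 3.443% hold such a match. The promoters of *Rsad2* (chr12:26456403-26456702, minus strand), *Eif2ak2* (chr17:78882523-78882822, minus strand), and *Irf7* (chr7:141266375-141266674, minus strand) are printed 5′ to 3′ on the strand of the gene, because *Rsad2* and *Irf7* were lower in NJT-2 libraries than in every vehicle library and *Eif2ak2* was not. Capitals mark the match, which begins at position -120 in *Rsad2* and at position 19 in *Eif2ak2*, counted from 1 at the start site.
Rsad2: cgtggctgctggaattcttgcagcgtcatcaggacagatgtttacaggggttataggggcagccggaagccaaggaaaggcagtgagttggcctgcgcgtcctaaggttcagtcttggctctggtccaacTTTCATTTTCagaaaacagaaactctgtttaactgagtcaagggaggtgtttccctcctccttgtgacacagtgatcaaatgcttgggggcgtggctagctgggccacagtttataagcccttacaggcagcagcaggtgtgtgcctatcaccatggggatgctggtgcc
Eif2ak2: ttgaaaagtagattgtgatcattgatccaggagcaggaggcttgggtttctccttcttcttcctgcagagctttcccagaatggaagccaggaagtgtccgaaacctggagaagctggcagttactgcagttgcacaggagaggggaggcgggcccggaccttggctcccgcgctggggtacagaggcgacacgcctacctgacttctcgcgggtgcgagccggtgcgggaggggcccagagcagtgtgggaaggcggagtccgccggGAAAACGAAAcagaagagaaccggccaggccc
Irf7: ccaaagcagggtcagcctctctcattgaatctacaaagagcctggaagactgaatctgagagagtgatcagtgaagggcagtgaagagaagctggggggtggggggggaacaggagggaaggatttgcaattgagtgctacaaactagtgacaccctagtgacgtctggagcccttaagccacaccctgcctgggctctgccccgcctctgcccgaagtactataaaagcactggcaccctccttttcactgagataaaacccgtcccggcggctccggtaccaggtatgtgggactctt
A match was present both in a promoter whose gene was lower in NJT-2 libraries and in a promoter whose gene had the same mean in both groups, and it was absent from the promoter of *Irf7*. A match is a string of letters and was not tested as a binding site.

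The analysed genes held between 27.7% and 32.5% of each library, and the library totals implied by the FPKM values ran from 58109064 to 89137313. The fold changes below come from counts scaled with TMM factors between 0.770 and 1.11. Vehicle replicate 1 and NJT-2 replicate 2 stood apart from the other libraries of their groups. Fits without both keep the closest pair of libraries in each group. Chi-square per gene was 458 for the kept vehicle pair, 56.6 for the kept NJT-2 pair, and 1129 or more for other pairs within groups. Calls in such fits rest on this small spread within groups. Log2 fold changes without both are given where the fold change, as a ratio and not a log2 value, moved by over 1.5 times. This holds for the interferon-stimulated antiviral genes and the best expressed genes of each interferon role, not for other single genes. Smaller moves are not all given, such as those in log2 from 0.64 to 0.35 for *Ifngr1* and from -0.06 to -0.42 for *Eif2ak2*. For the labelled cell type, 12 of 18 adipocyte markers were found and tested. Of these, 7 were called higher with NJT-2, where 0.567% of all genes were. Calls were made with edgeR's quasi-likelihood test and needed a log2 fold change beyond 1 in size together with an adjusted p (Benjamini-Hochberg) below 0.05. The summed level of the 12 markers was 2305 to 4758 CPM (counts scaled to the TMM-adjusted sum of the tested genes, which is only part of each library) in vehicle and 8273 to 29750 CPM in NJT-2 libraries. The called genes were *Adipoq*, *Plin4*, *Lipe*, *Pnpla2*, *Cd36*, *Gpd1*, and *Lpin1*, with log2 fold changes from 3.12 for *Lpin1* to 8.08 for *Cd36*. *Adipoq*, the gene of the fat cell hormone adiponectin, stayed between 0.38 and 0.50 FPKM in vehicle libraries, near 0 for cells labelled as adipocytes, whereas *Lpl*, the lipoprotein lipase gene, was between 55.1 and 78.8 FPKM there. Leaving out any 1 library other than NJT-2 replicate 2 left at most 4 genes called in all, so that calls of marker genes, here and below, rest on the full set of libraries. The part of this difference in adipocyte genes in the results below was not tested.

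Among the regulators, *Irf7* (ENSMUSG00000025498, chr7:141262706-141266481, minus strand, as for all genes on GRCm38) had the highest mean FPKM of the 10 genes in both groups, although *Ifi35* was above it in vehicle replicate 1 and NJT-2 replicates 1 and 3. Its FPKM values were 79.3, 108, and 76.4 in vehicle replicates 1 to 3 and 22.0, 26.0, and 17.2 in NJT-2 replicates 1 to 3. Every NJT-2 library lay below every vehicle library, and the replicates of each group were close to each other. The mean was 87.9 ± 17.5 (SD, n = 3) with vehicle and 21.8 ± 4.42 with NJT-2, a ratio of 4.04, and the fitted log2 fold change was -2.20 with a standard error (SE) of 0.37. *Irf7* ranked 157 of the 3705 tested genes by mean FPKM with vehicle and 728 with NJT-2.

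*Irf9* (ENSMUSG00000002325, chr14:55603571-55610030, plus strand), the DNA-binding subunit of ISGF3, behaved otherwise. It had 6.04, 11.2, and 12.6 FPKM in vehicle and 7.67, 14.0, and 7.62 FPKM in NJT-2 libraries. The groups overlapped, with the lowest value in vehicle replicate 1 and the highest in NJT-2 replicate 2, and the means were 9.96 ± 3.47 and 9.77 ± 3.69. The fitted log2 fold change was -0.125 (SE 0.375). It was -0.65 without vehicle replicate 1 and NJT-2 replicate 2, and 0.05 when NJT-2 replicate 1 or 3 was left out instead, so that no direction is given for this gene.

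Of the sensors of double-stranded RNA, *Dhx58* (ENSMUSG00000017830, chr11:100694884-100704271, minus strand) encodes LGP2, a helicase that regulates RIG-I and MDA5. Its FPKM values were 12.9, 16.6, and 16.0 with vehicle and 8.49, 2.23, and 7.23 with NJT-2. The groups were separate, and NJT-2 replicate 2 was the lowest of the 6 libraries. The means were 15.1 ± 1.98 and 5.98 ± 3.31 FPKM, and the log2 fold change was -1.54 (SE 0.48).

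*Eif2ak2* (ENSMUSG00000024079, chr17:78852564-78882573, minus strand) encodes PKR, the kinase that stops translation when it binds double-stranded RNA. The vehicle libraries had 5.99, 10.5, and 26.3 FPKM and enclosed the NJT-2 libraries with 14.0, 15.3, and 13.6 FPKM. The mean was 14.3 in both groups, but the SD was 10.7 with vehicle and 0.897 with NJT-2. Its log2 fold change of -0.06 (SE 0.44) turned to 0.54 without vehicle replicate 3, and to values between 0.0031 and 0.27 in other settings, so it too has no direction.

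The Mx proteins are dynamin-like GTPases that trap viral components, and *Mx1* and *Mx2* lie head to head on chromosome 16, 72.4 kb apart. C57BL/6 mice, like most inbred strains, are known to carry defective alleles of both genes, so the values are transcript levels only. As the genes are paralogs, reads that fit both could have been split between them in the authors' counting. *Mx2* (ENSMUSG00000023341, chr16:97535308-97560900, plus strand) had 11.3, 9.5, and 9.6 FPKM with vehicle and 2.85, 2.1, and 1.72 FPKM with NJT-2. The groups were far apart against the spread within them, as the means were 10.2 ± 1.03 and 2.22 ± 0.575 FPKM, a ratio of 4.57, and the log2 fold change was -2.43 (SE 0.41). *Mx1* (ENSMUSG00000000386, chr16:97447035-97462907, minus strand) had 1.08, 5.33, and 7.20 FPKM with vehicle and 1.2, 0.25, and 0.69 FPKM with NJT-2. Vehicle replicate 1 lay below NJT-2 replicate 1 in FPKM and above it in scaled CPM (19.3 against 13.7), so whether the groups overlap depends on the scale. The *Mx1* means were 4.54 ± 3.14 and 0.713 ± 0.475 FPKM, and the log2 fold change of -2.70 was the most negative of the 10 but had an SE of 0.73, against 0.41 for *Mx2*. The FPKM ratio of *Mx2* to *Mx1* ran from 1.33 to 10.5 in vehicle and from 2.38 to 8.40 in NJT-2 libraries, so the neighbours did not keep 1 ratio within either group.

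*Rsad2* and *Cmpk2* form another head-to-head pair, 12.8 kb apart on chromosome 12. *Rsad2* (ENSMUSG00000020641, chr12:26442746-26456452, minus strand) encodes viperin, a radical SAM enzyme that makes a chain-terminating nucleotide, and *Cmpk2* (ENSMUSG00000020638, chr12:26469204-26479837, plus strand) encodes a mitochondrial nucleotide kinase. *Rsad2* had 7.57, 9.81, and 11.9 FPKM with vehicle and 1.88, 6.03, and 2.09 FPKM with NJT-2. The groups did not overlap, but NJT-2 replicate 2 was nearer to the lowest vehicle library than to the other NJT-2 libraries. Its log2 fold change was -1.67 (SE 0.53) and became -2.51 when that replicate was left out and -2.46 when vehicle replicate 1 was left out too. *Cmpk2* had 0.37, 4.71, and 7.60 FPKM with vehicle and 1.26, 1.74, and 0.99 FPKM with NJT-2. Here vehicle replicate 1 was the lowest of all libraries, with 91 counts against 1747 and 2261 in the other vehicle libraries, and the groups overlapped. The log2 fold change of *Cmpk2* was -1.63 (SE 0.81), with -0.98 when vehicle replicate 3 was left out, -2.18 when vehicle replicate 1 was left out, and -2.45 when vehicle replicate 1 and NJT-2 replicate 2 were both left out. In vehicle replicate 1 the FPKM of *Rsad2* was 20.5 times that of *Cmpk2*, and in the other 5 libraries the ratio was between 1.49 and 3.47.

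*Ifi35* (ENSMUSG00000010358, chr11:101448407-101458698, plus strand) encodes an interferon-induced partner of NMI. Its FPKM values were 121.2, 53.5, and 35.1 with vehicle and 24.6, 12.5, and 22.2 with NJT-2. All NJT-2 libraries were lower, but the vehicle libraries differed among themselves by more than vehicle replicate 3 differed from the NJT-2 libraries nearest to it. The means were 70.0 ± 45.4 and 19.8 ± 6.43 FPKM, and the log2 fold change of -2.21 (SE 0.66) was -1.19 without vehicle replicate 1, -0.93 without vehicle replicate 1 and NJT-2 replicate 2, and -1.48 with an offset for gene length. *Parp9* (ENSMUSG00000022906, chr16:35938470-35972605, plus strand), whose protein works with the ubiquitin ligase DTX3L, had 7.33, 16.9, and 21.9 FPKM with vehicle and 10.2, 8.91, and 8.23 FPKM with NJT-2. Vehicle replicate 1 was again low, below all NJT-2 libraries in FPKM, whereas in scaled CPM it was above them with 167.8 against 117.9 to 148.5. The log2 fold change of *Parp9* was -0.84 (SE 0.33).

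**Figure D1:**
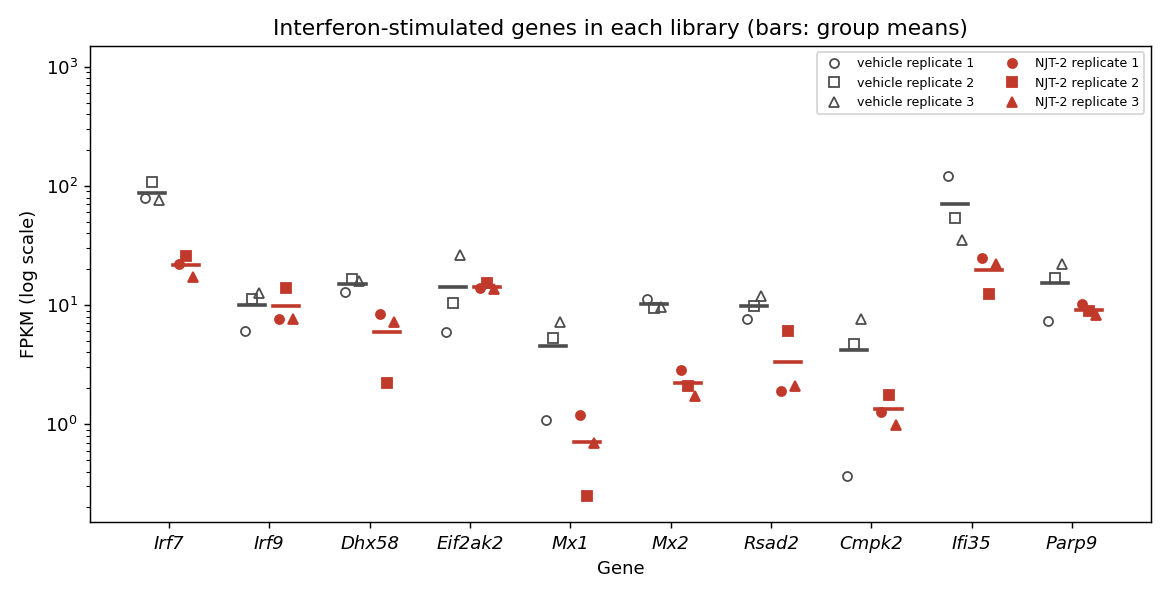
FPKM on a log axis for each of the 10 genes, with 1 point per library (open grey, vehicle; red, NJT-2; circle, square, and triangle for replicates 1, 2, and 3) and bars at the group means. The groups are separate for *Irf7*, *Dhx58*, *Mx2*, *Rsad2*, and *Ifi35*, and vehicle replicate 1 lies far below its group for *Mx1* and *Cmpk2*.

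Ordered by vehicle mean FPKM, *Irf7* and *Ifi35* came first, followed by *Parp9*, *Dhx58*, *Eif2ak2*, *Mx2*, *Irf9*, and *Rsad2* between 15.4 and 9.77 FPKM, and by *Mx1* and *Cmpk2* at 4.54 and 4.23 FPKM. Only the ranges of *Ifi35* and *Parp9* and those of *Rsad2* and *Mx1* were apart among neighbours in this order. With NJT-2 the order was *Irf7*, *Ifi35*, *Eif2ak2*, *Irf9*, *Parp9*, *Dhx58*, *Rsad2*, *Mx2*, *Cmpk2*, and *Mx1*, and the ranges of all neighbours overlapped. *Eif2ak2* and *Irf9* moved up in the order without a difference in mean, and *Mx2* moved down from the sixth place to the eighth. The coefficient of variation over vehicle libraries was 10.2% for *Mx2*, 13.1% for *Dhx58*, and 19.9% for *Irf7*, but 86.1% for *Cmpk2* and 74.9% for *Eif2ak2*. Over NJT-2 libraries it was highest for *Rsad2* with 70.1% and *Mx1* with 66.7%.

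All 10 fitted log2 fold changes were negative, with a median of -1.65 against 0.02 over all genes tested. This includes *Irf9* and *Eif2ak2*, whose sign turned in some settings. In edgeR's quasi-likelihood test 0 of the 10 genes were called, where 0.135% of all genes were called lower and 0.567% higher. *Irf7* and *Mx2* both had an edgeR adjusted p of 0.0508, which is no evidence for genes chosen on this contrast. At an unadjusted p under 0.05, 7 of the 10 were lower, where 9.72% of all genes were. DESeq2 called 5 of the 10 lower (*Irf7*, *Mx2*, *Mx1*, *Ifi35*, and *Dhx58*), where it called 3.40% of all genes lower. In scaled CPM, every NJT-2 library lay below every vehicle library for 7 of the 10 genes and above for 0, where 14.0% of all genes had no overlap with NJT-2 below and 15.1% with NJT-2 above. In FPKM 5 of the 10 had no overlap, and on that scale the share of all genes was not counted. Without vehicle replicate 1 and NJT-2 replicate 2, a fit chosen after seeing the data, 7 of the 10 were called lower (*Irf7*, *Mx2*, *Mx1*, *Dhx58*, *Rsad2*, *Cmpk2*, and *Parp9*), where 6.29% of all genes were. As the genes were selected on this contrast, nothing is read from these counts. On the log2(FPKM + 1) scale the log2 fold changes were -1.51 for *Mx1*, -0.82 for *Cmpk2*, -1.80 for *Mx2*, and -1.64 for *Ifi35*.

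**Figure D2:**
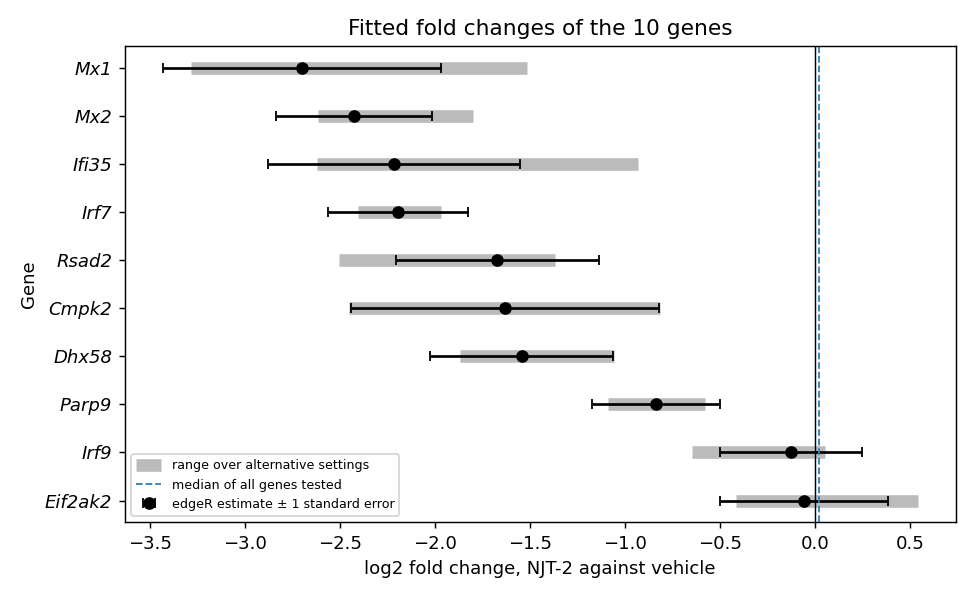
Fitted log2 fold change of NJT-2 against vehicle on the horizontal axis for each of the 10 genes, as edgeR estimate ± 1 SE (black), with the range over alternative settings in grey and the median of all genes tested dashed. The estimates run from -2.70 for *Mx1* to -0.06 for *Eif2ak2*, and the grey range crosses 0 for *Irf9* and *Eif2ak2*.

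Between replicates of a group, about as many pairs of these genes moved in opposite directions as together. Over all 6 libraries, Pearson's r of log2 CPM was positive in 38 of 45 pairs of genes with a median of 0.52, a value that holds the difference between the groups that chose the genes. After the group means were removed, 22 of 45 pairs were positive and the median was -0.18. *Irf7* and *Mx2* had r = 0.97 over the 6 libraries and 0.66 after removal, and *Cmpk2* and *Parp9* had 0.83 and 0.94. Opposite patterns were as strong, as *Irf9* and *Dhx58* had -0.98 after removal and *Cmpk2* and *Ifi35* had -0.98. *Rsad2* and *Cmpk2*, neighbours in the genome, had 0.43 and 0.15, and *Mx1* and *Mx2* had 0.73 and -0.46. These correlations describe the same 6 libraries and carry no p.

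The differences of vehicle replicate 1 and NJT-2 replicate 2 from the rest of their groups were set against gene length. The log2 CPM of vehicle replicate 1 minus the mean of vehicle replicates 2 and 3 was 2.15 for *Ifi35*, which has the shortest length behind its FPKM values (1727 bases), and 0.91 for *Mx2* (3617 bases). It was -0.81 for *Eif2ak2* (5114 bases) and -0.73 for *Parp9* (4875 bases), but also -3.31 for *Cmpk2* (4169 bases) and -1.85 for *Mx1* (3799 bases). Spearman's rho with length was -0.64 over the 10 genes and -0.37 over 3705 genes. For NJT-2 replicate 2 minus the mean of NJT-2 replicates 1 and 3, the differences ran from -1.68 for *Mx1* and -1.67 for *Dhx58* to 1.01 for *Irf9* and 1.74 for *Rsad2*, with a rho of 0.62 over the 10 genes and 0.15 over all genes. The median over the 10 genes was -0.09 and 0.19 for these libraries, near the median over all genes of -0.02 and -0.10, and each library had members above and below the others of its group. The part of these library differences in the fold changes was not tested beyond the fits named here.

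**Figure D3:**
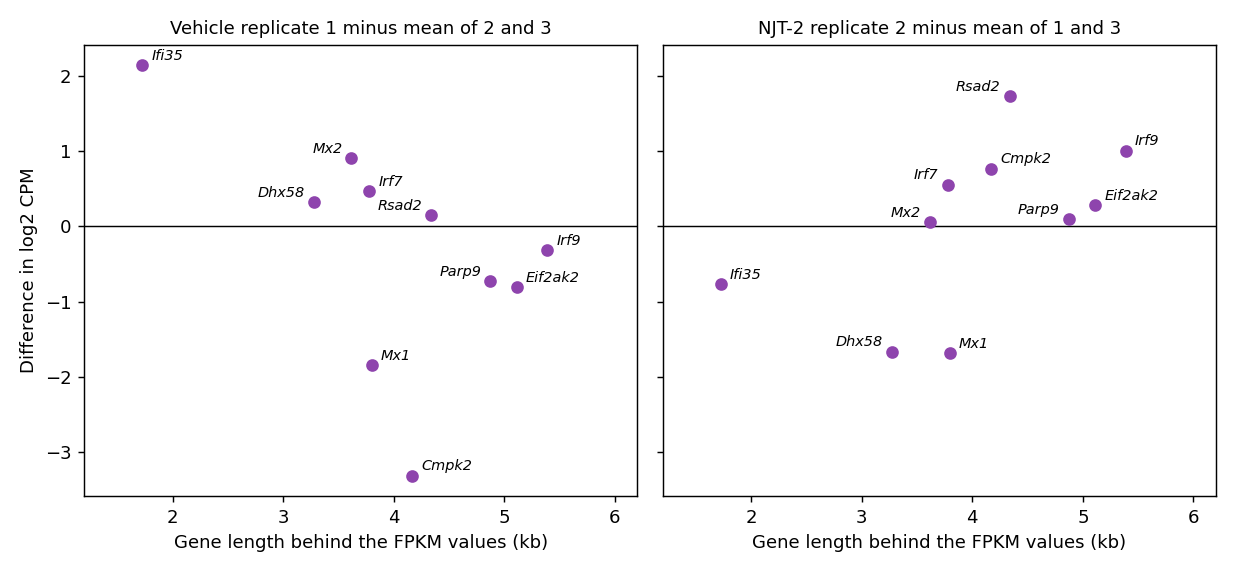
Difference in log2 CPM between vehicle replicate 1 (left) or NJT-2 replicate 2 (right) and the mean of the other libraries of its group, against the length behind the FPKM values in kb, with 1 point per gene. *Ifi35* is highest on the left and *Cmpk2* lowest, and on the right *Rsad2* is highest with *Mx1* and *Dhx58* lowest.

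To find the genes with the most similar pattern, the log2 CPM values of the 10 genes were standardised and averaged, and 3695 other genes were compared with this mean over the 6 libraries. The mean profile was 0.33, 0.57, and 0.91 in vehicle and -0.56, -0.43, and -0.83 in NJT-2 libraries, in units of SD. The highest r was 0.985 for *Men1*, which encodes menin, followed by *Atp10a* with 0.971, *Epas1* (HIF-2α) with 0.971, *Aldh1a2*, a retinoic acid-forming dehydrogenase, with 0.969, and *Ghdc* with 0.965. *Aldh1a2* had 3.05, 14.5, and 16.5 FPKM with vehicle and 1.13, 1.99, and 1.28 FPKM with NJT-2, and *Men1* had 6.40, 10.5, and 10.8 FPKM and 8.18, 7.98, and 8.01 FPKM. In FPKM, vehicle replicate 1 was thus below all NJT-2 libraries for *Men1*, and likewise for *Ghdc* (3.37 against 4.28 to 4.50). Their likeness is therefore given for log2 CPM only. High r values are common with 6 libraries, as 2.54% of genes had an absolute r over 0.9. After the group means were removed, the most similar genes were *Ppil4* (0.968), *Pde1b* (0.943), *Jup* (0.937), *Rhobtb1* (0.932), and *Mknk2* (0.920), which shared no gene with the former list.

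The wider interferon system was described with lists of genes by role. None of the 21 interferon genes listed was among the genes analysed, so the ligands themselves were not analysed here. Of all 168 genes listed, 27 were found and 26 tested, and edgeR called 0 of them. At an unadjusted p under 0.05, 11 were lower and 1 was higher, where 9.72% of all genes were lower and 8.04% higher. DESeq2 called 8 lower and 1 higher, where it called 3.40% of all genes lower and 4.4% higher. The median log2 fold change was -0.74, against 0.02 over all genes tested, with 17 of 26 negative.

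Of the 5 receptor genes tested, *Ifnar2*, the signaling subunit for type I interferon, had 31.4, 77.4, and 63.8 FPKM with vehicle and 20.5, 33.6, and 24.3 FPKM with NJT-2. The groups overlapped in FPKM and not in scaled CPM, and the log2 fold change was -1.23 (SE 0.36, edgeR adjusted p = 0.175). *Ifngr1*, the ligand-binding chain for interferon gamma, had 26.5 ± 12.5 FPKM with vehicle and 43.7 ± 4.91 with NJT-2 (log2 fold change 0.64, edgeR adjusted p = 0.328). Of the other receptor genes, *Ifngr2*, the signaling chain for interferon gamma, had 19.6 ± 5.82 and 11.0 ± 0.586 FPKM, with every NJT-2 library below every vehicle library (log2 fold change -0.97, edgeR adjusted p = 0.169), and *Ifnar1* and *Il10rb* had log2 fold changes of -0.34 and -0.33. Thus 4 of the 5 were negative and *Ifngr1* was positive, with a median of -0.34. At an unadjusted p under 0.05, 2 were lower (9.72% of all genes), edgeR called 0, and DESeq2 called 1 lower (3.40% of all genes). Without vehicle replicate 1 and NJT-2 replicate 2, the median was -1.11 and edgeR called 3 lower (6.29% of all genes). The 5 signal transduction genes found had a median of 0.26. It was -0.29 without vehicle replicate 1 and NJT-2 replicate 2, where edgeR called 1 higher (264 of all 3690 genes). In the full fit edgeR called 0, with 1 higher at an unadjusted p under 0.05 (8.04% of all genes). DESeq2 called 1 higher (4.4% of all genes). The best expressed members, *Jak2* and *Stat3*, had log2 fold changes of 0.26 (SE 0.47) and 0.93 (SE 0.57). *Stat3* reached 77.8 FPKM in NJT-2 replicate 2 and 22.4 and 26.4 FPKM in the other NJT-2 libraries, within the vehicle range of 11.1 to 30.7 FPKM, and its fold change was -0.13 without vehicle replicate 1 and NJT-2 replicate 2. *Jak2* was likewise -0.39 without these libraries. Of the 4 sensors and adaptors, *Sting1*, the adaptor of cytosolic DNA sensing, had 15.8 ± 4.54 FPKM with vehicle and 9.62 ± 2.85 with NJT-2. *Trim25*, the ubiquitin ligase of RIG-I signaling, had 22.3 ± 4.71 and 16.3 ± 1.52 FPKM. Their log2 fold changes were -0.84 (edgeR adjusted p = 0.273) and -0.64 (edgeR adjusted p = 0.299). The other 2 were positive, with 1.2 for *Tbk1*, a kinase of interferon induction whose NJT-2 libraries were all above the vehicle libraries (edgeR adjusted p = 0.314), and 0.11 for *Traf3*.

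Of 12 induced effectors tested outside the 10 genes, 10 had a negative and 2 a positive log2 fold change, with a median of -1.38 and a range of -2.56 to 1.09. For 9 of the 12, every NJT-2 library was below every vehicle library in scaled CPM, where 14.0% of all genes were. The edgeR test called none of the 12, with 8 lower at an unadjusted p under 0.05 (9.72% of all genes), and DESeq2 called 7 lower (3.40% of all genes). Without vehicle replicate 1 and NJT-2 replicate 2, edgeR called 4 lower (6.29% of all genes) and the median was -0.94. *Ifitm3*, which blocks the entry of viruses from endosomes, was by far the best expressed with 2168, 2252, and 1197 FPKM in vehicle and 590.7, 580.2, and 533.2 FPKM in NJT-2 libraries. Its NJT-2 values were close to each other and below each vehicle value, with a log2 fold change of -1.97 (SE 0.45, edgeR adjusted p = 0.114), which was -0.82 with an offset for gene length (edgeR adjusted p = 0.292). *Ly6e*, a membrane protein that limits coronavirus entry, had 532.2, 417.8, and 229.6 FPKM with vehicle and 185.5, 105.6, and 146.0 FPKM with NJT-2 (log2 fold change -1.74, edgeR adjusted p = 0.185), and its fold change was -0.98 without vehicle replicate 1 and NJT-2 replicate 2. Further values, chosen after they were seen, were -2.56 for *Oas1c*, -2.55 for *Ifitm1*, and -1.63 for *Mov10*, and on the other side 1.09 for *Cd274* (PD-L1), with 12.5 FPKM in NJT-2 replicate 2 and 1.73 and 1.83 in the other NJT-2 libraries. *Ifitm* and *Oas1* genes have close paralogs, among which the authors' counting could have split reads.

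**Figure D4:**
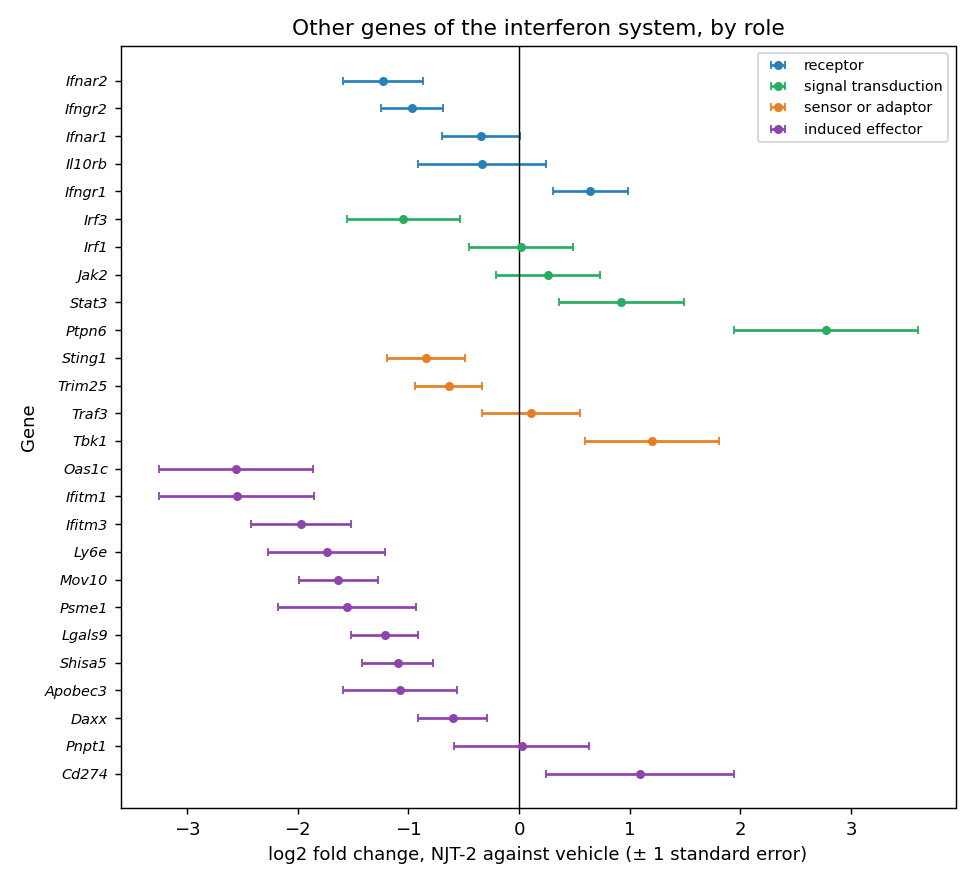
Fitted log2 fold change of NJT-2 against vehicle (± 1 SE) for the 26 other interferon system genes tested, colored by role. Of 12 induced effectors 10 lie below 0, while receptors, signal transduction genes, and sensors lie on both sides, and *Ptpn6*, a phosphatase gene at a mean of 0.193 FPKM in vehicle libraries, is farthest to the right at 2.77.

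Markers of other cells that can carry interferon-stimulated genes were read in the same libraries. Of 22 macrophage markers, 10 were found and 7 tested. All 7 had a positive log2 fold change, the smallest being 0.03 for *Csf1r*. At an unadjusted p under 0.05, 4 were higher (8.04% of all genes), and DESeq2 called 3 higher (4.4% of all genes). With edgeR 1 was called higher (0.567% of all genes). This was *Adgre1* with 1.60 ± 0.653 FPKM in vehicle and 16.5 ± 8.44 in NJT-2 libraries (log2 fold change 3.23, edgeR adjusted p = 0.0408). *Cd68* had 5.95 and 23.5 FPKM (edgeR adjusted p = 0.0820). The summed level of the macrophage markers was 118.2 to 195 CPM with vehicle and 307 to 500.4 CPM with NJT-2. The 10 genes together summed to 2512 to 3426 CPM with vehicle and 880.5 to 1192 CPM with NJT-2. The 9 markers of T, NK, or B lymphocytes found were near 0, at no more than 8.68 CPM in sum, and 4 of them were at 0 in all vehicle libraries. The 4 endothelial markers found summed to 23.9 to 40.9 CPM and 25.4 to 46.4 CPM, and the best expressed, *Tek*, had 0.720 and 1.23 FPKM. Both pericyte or smooth muscle markers found were lower with NJT-2 at an unadjusted p under 0.05 (9.72% of all genes). Neither was called by edgeR, and DESeq2 called 1 lower (3.40% of all genes). The sums of both were 147.3 to 174 CPM and 45.6 to 52.7 CPM, and *Cnn1*, a smooth muscle calponin, had 10.1 and 2.28 FPKM. Of the 6 adipose progenitor or fibroblast markers tested, 1 was called lower by edgeR (0.135% of all genes), *Pi16* (log2 fold change -3.83, edgeR adjusted p = 0.0270). The median log2 fold change of the 6 was -0.88, with 5 negative. At an unadjusted p under 0.05, 3 were lower (9.72% of all genes), and DESeq2 called 3 lower (3.40% of all genes). *Col1a1*, the best expressed, had 439.9 and 388.3 FPKM (log2 fold change -0.21). *Dcn* had 138.5 and 38.7 FPKM (log2 fold change -1.84), *Pdgfrb* had 71.8 and 32.0 FPKM (-1.35), and *Cd34* had 0.857 and 0.673 FPKM (-0.42). *Fap* went the other way with 0.757 and 1.52 FPKM (0.80), and all its NJT-2 libraries were above the vehicle libraries in scaled CPM. The sums, of which *Col1a1* is the largest part, were 6613 to 18520 CPM and 8560 to 9386 CPM. The 6 markers of proliferating cells found summed to 902.7 to 1084 CPM with vehicle and 487.2 to 642.9 CPM with NJT-2. Of the 6, edgeR called 0, 3 were lower at an unadjusted p under 0.05 (9.72% of all genes), and DESeq2 called 3 lower (3.40% of all genes). All 6 log2 fold changes were negative, with a median of -0.83 and a range from -2.24 for *Birc5* to -0.26 for *Kif11*. *Top2a*, the best expressed of these markers, had 12.0 and 9.03 FPKM (log2 fold change -0.48). In such bulk samples fewer cells of a type and less RNA per cell cannot be told apart, and the part of these cell types in the interferon-stimulated genes was not tested.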

How the data were processed

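ADSC-derived adipocytes were sequenced with 3 libraries per group, grouped and numbered by their labels. Per the labels, dUTP-stranded libraries of polyadenylated RNA were sequenced from both ends. The submitters' processing notes name cutadapt 1.9, HISAT2 2.2.1, StringTie 2.1.6, DESeq2, and edgeR, and the build GRCm38. The annotation release, the tool that counted reads, and its strand setting are not given in the sources used here. The authors deposited 1 table with raw read counts per gene, not normalized, and FPKM values per gene, which the authors scaled by gene length and library total. Of 4865 lines, 4864 were complete, and 1 was left out. These genes are ordered by Ensembl number and are part of the 55450 genes of GENCODE M21, so full library totals were estimated from counts and FPKM of 371 genes with 1 transcript and used only as an alternative scaling. The members and lists were chosen with earlier results of these data known.

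Counts were fitted with edgeR 4.0.16 (quasi-likelihood, TMM) in R 4.3.3 over the 3705 genes whose mean FPKM was 0.5 or more, and p-values were adjusted over all of them (Benjamini-Hochberg). Calls needed a log2 fold change beyond 1 in size and an adjusted p below 0.05. The SE equals the fold change over the square root of its F statistic. Library sizes and scaled CPM came from the summed counts of the tested genes, and log2 CPM used a prior count of 2. The common biological coefficient of variation was 0.504, well above counting error for these genes, whose lowest count was 68. The procedure was tested on simulated data. The main fit used no pairing by replicate number, and 3 libraries per group cannot settle whether there was one. Deviations of same-numbered libraries had correlations of 0.179, 0.0325, and -0.208, and those of libraries with different numbers lay between -0.209 and 0.223. The closest libraries, NJT-2 replicates 1 and 3, differed with a chi-square of 56.6 per gene.

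The named genes are the 10 members, other interferon genes that were called, and the 2 with the highest mean FPKM in each role list. The 5 genes most like the members' mean by Pearson's r, with and without group means, are also named. For each marker list with tested genes, called genes and the best expressed one are named. Further interferon, virus defense, and marker genes were added after their values were seen. Alternatives were DESeq2 1.42.0, other filters, upper-quartile factors, implied totals, limma 3.58.1 on log2(FPKM + 1) and log2(FPKM + 0.1), a length offset, a replicate block, and leaving out each library. Leaving out 2 libraries together was added after seeing the data.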

Additional observations from a re-analysis of the deposited data

How the results depend on the processing

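For the 10 genes, 8 kept a negative log2 fold change in all 17 alternatives, and the other 2 are *Irf9* and *Eif2ak2*. *Irf9* ran from -0.65 to 0.053 when libraries were left out and was above 0 (0.05) without NJT-2 replicate 1 or 3. *Eif2ak2* turned to 0.0031 with implied library totals, 0.23 and 0.27 with limma on log2(FPKM + 1) and log2(FPKM + 0.1), and 0.10 with the replicate block, and it ran from -0.42 to 0.54 when libraries were left out, above 0 without NJT-2 replicate 3 (0.0087) or vehicle replicate 3 (0.54). When libraries were left out, *Jak2* ran from -0.39 to 0.67 (-0.08 without vehicle replicate 1 or NJT-2 replicate 2, -0.39 without both), and *Stat3* ran from -0.13, without both, to 1.25. The cause was not tested.

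The number of the 10 genes called was 0 in the edgeR fit and with implied totals. It was 5 with DESeq2, 2 (*Irf7* and *Mx2*) with no filter, a filter at 10 counts per library or at a mean FPKM of 1, upper-quartile factors, limma with either pseudocount, the length offset, or the replicate block, 0 to 2 when 1 library was left out (2, *Irf7* and *Rsad2*, without NJT-2 replicate 2), and 7 without vehicle replicate 1 and NJT-2 replicate 2. All these calls were lower with NJT-2. Over all genes, 126 of 3705 were called lower with DESeq2, 9 of 4821 with no filter, and 9 of 3842 at 10 counts. At a mean FPKM of 1, 8 of 3467 were lower, with upper-quartile factors 9 of 3705, and with either limma fit 10. The length offset called 8 lower and the replicate block 14. Leaving out NJT-2 replicate 2 gave 21 of 3661, and leaving out both libraries 232 of 3690. As a description only, the adjusted p of *Irf7* ran from 2.41e-06 to 0.297 and that of *Mx2* from 8.20e-06 to 0.293. Of the 26 other interferon genes tested, 0 were called in the edgeR fit. DESeq2 called 8 lower and 1 higher, as did the fit without both libraries, and all other alternatives called 0. Over all genes, DESeq2 called 163 of 3705 higher and the fit without both libraries 264 of 3690. Over all genes 26 were called in the edgeR fit, 289 with DESeq2, 40 with the length offset, 57 with the replicate block, and 496 without both libraries. Leaving out 1 library gave 0 to 80 calls, with 1, 0, and 4 without vehicle replicates 1, 2, and 3 and 1, 80, and 1 without NJT-2 replicates 1, 2, and 3. Without vehicle replicate 2, where edgeR called 0, 424 genes had an unadjusted p under 0.05. The median log2 fold change of all genes was 0.02 in the edgeR fit and 0.14 to 0.17 with implied totals or limma on FPKM.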

Other observations

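Genes annotated to the defense response to virus that are not among the 10 were described in the same fit. Of 48 found, 40 were tested and 0 were called by edgeR, with 8 lower and 2 higher at an unadjusted p under 0.05, where 9.72% and 8.04% of all genes were. DESeq2 called 5 lower and 1 higher, where it called 3.40% and 4.4% of all genes. Their median log2 fold change was -0.30. This annotation shares genes with the lists by role, among them *Ifitm1*, *Ifitm3*, *Oas1c*, *Mov10*, *Ifnar2*, and *Sting1*. The gene farthest above 0 was *Cxadr*, a cell adhesion protein that coxsackieviruses and adenoviruses use as a receptor, with 0.04, 0.11, and 0.24 FPKM in vehicle and 0.99, 1.93, and 1.16 FPKM in NJT-2 libraries (log2 fold change 3.35, SE 0.70, edgeR adjusted p = 0.0962). *Ripk3* and *Mlkl*, the kinase and the effector of necroptosis, were highest in NJT-2 replicate 2 with 44.5 and 26.5 FPKM. The other NJT-2 libraries had 8.41 and 12.0 FPKM for *Ripk3* and 9.27 and 9.63 FPKM for *Mlkl*, below the vehicle range of 20.9 to 33.3 FPKM and 15.7 to 16.3 FPKM. These genes were chosen after their values were seen.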
